A study of Mus musculus with 31 samples.

Results

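Among 16 RNA-seq libraries of epididymal white adipose tissue (eWAT, the fat pad that lies against the epididymis of the male mouse), 3 held more than 100 CPM (counts scaled to the total of the library) of Alb, the transcript of serum albumin. These were HF 5 with 217 CPM, LF 5 with 170 CPM and LF 3 with 138 CPM. They are called the Alb-high libraries here, and they were set against the other 13, whose levels ended at 55.9 CPM in HF 6, the library just outside the limit. The 3 libraries were chosen by their Alb level, so that level in them is a description and not a result, and so is that of every gene measured in the same contrast. The whole series holds 31 libraries, the 16 of eWAT and 15 of liver from the same study, and the liver libraries served here as the measure of what a hepatocyte-rich tissue holds.

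All animals were wild-type C57BL/6 males of the F1 generation, aged 24 weeks. They ate chow until 6 weeks of age and the LFD diet for the 18 weeks that followed, whatever their arm. The diet tag of the labels (HFLFD, HFD or LFD) gives the arms HFLF, HF and LF, and from the title of the series it was read as the diet of the paternal line, which no label spells out. eWAT had 6 HFLF, 6 HF and 4 LF libraries, and liver had 6, 5 and 4. Of the Alb-high libraries 2 were among the 4 of LF, 1 was among the 6 of HF and 0 were among the 6 of HFLF. The labels do not say whether a library came from 1 animal or from several.

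Albumin is made by hepatocytes, the parenchymal cells of the liver, which secrete most of the proteins of blood plasma: albumin, the apolipoproteins of circulating lipid particles, the 3 chains of fibrinogen, carrier proteins and protease inhibitors. Adipocytes make some proteins of the same kind, among them transferrin and haptoglobin, but albumin and the fibrinogen chains are not products that define fat. In bulk tissue, fewer cells of a type and less RNA per cell cannot be told apart. The libraries held the markers of fat at high levels. Adipoq (adiponectin, a hormone of adipocytes) had 3258 CPM in HF 5, 4454 in LF 5 and 2692 in LF 3, against 3069 to 4810 in the other 13, so that LF 3 lay below all of them. LF 3 stood apart in many genes: it was above all 13 others for 15.7% and below all 13 for 13.8% of all genes measured. For HF 5 these shares were 8.41% and 3.05%, and for LF 5 they were 3.3% and 3.33%.

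The proximal promoters of the 4 hepatocyte markers Alb, Apoa2, Fga and Fgb are shown because their transcripts move together over the libraries described here. Each line gives 150 bases before the RefSeq start of transcription in GRCm38.p6, 5′ to 3′ on the strand of the gene. Capitals mark TGTTTAC, the core of the site of the forkhead factors, among them FOXA factors of hepatocytes. On either strand it stood in the printed stretch of Apoa2, and not in those of Alb, Fga and Fgb.
Alb (chr5:90460720-90460869, + strand): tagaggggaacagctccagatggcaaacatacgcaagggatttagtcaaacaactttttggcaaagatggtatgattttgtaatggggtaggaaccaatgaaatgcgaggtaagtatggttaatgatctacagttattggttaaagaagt
Apoa2 (chr1:171224904-171225053, + strand): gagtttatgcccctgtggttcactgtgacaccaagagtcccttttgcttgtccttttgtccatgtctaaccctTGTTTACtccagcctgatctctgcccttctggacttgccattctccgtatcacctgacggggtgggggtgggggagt
Fga (chr3:83026003-83026152, + strand): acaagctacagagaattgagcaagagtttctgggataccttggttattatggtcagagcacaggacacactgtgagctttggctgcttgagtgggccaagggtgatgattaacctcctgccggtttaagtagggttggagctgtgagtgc
Fgb (chr3:83049864-83050013, - strand): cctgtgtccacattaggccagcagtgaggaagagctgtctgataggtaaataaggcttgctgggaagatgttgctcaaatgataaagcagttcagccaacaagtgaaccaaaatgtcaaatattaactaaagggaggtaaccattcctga

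Apoa2 has 2 windows in the RefSeq table, and the one that begins at the annotated start of the gene is shown. Motifs were searched on both strands of the 300-base window (250 before and 50 after the start). Of the 145 liver-enriched genes defined below, 116 had a window in the RefSeq table, and 5.17% of these held TGTTTAC, beside 4.05% of the 27025 genes with a window. The other motifs were CAAAGTCC of HNF4A (6.03% of the 116 and 1.63% of all genes), TTGCGCAA of the C/EBP factors (0.0% and 0.207%) and TATAAA, the TATA box (28.4% and 15.7%), and none of these motifs contains another. These are matches of letters in a window and not sites shown to be bound.

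The 4 markers were separated between the Alb-high libraries and the others. Apoa2 (apolipoprotein A-II, a protein of high-density lipoprotein) had 30.5 CPM in HF 5, 19.3 in LF 5 and 15.2 in LF 3, against a lowest value of 0.477, a median of 4.17 and a highest value of 6.23 in the other 13. Fga, the fibrinogen alpha chain, had 27.5, 21.9 and 16.9 CPM in HF 5, LF 5 and LF 3, and between 0.358 and 4.89 CPM, with a median of 2.71, in the other 13. Fgb, the beta chain, had 27.3, 24.4 and 17.03 CPM in the same 3 libraries, against 0.198 to 5.95 CPM with a median of 3.04 in the other 13. For each marker all 3 Alb-high libraries lay above all 13 others, HF 5 was the highest and LF 3 the lowest of the 3. The markers rested on 539 to 4297 counts each in HF 5, 305 to 2694 in LF 5 and 141 to 1279 in LF 3.

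With arm as a covariate, the log2 difference between the Alb-high libraries and the others was 2.17 ± 0.44 for Alb, 2.35 ± 0.62 for Apoa2, 2.74 ± 0.64 for Fga and 2.63 ± 0.73 for Fgb (SE, 3 Alb-high and 13 other libraries in the fit). HFLF holds no Alb-high library, so with arm fitted these and later log2 differences of this contrast rest on comparisons within LF and HF. The HFLF libraries enter through the spread only. Set against liver, these levels were low. Alb averaged 65388 ± 10066 CPM over the 15 liver libraries (SD) and Apoa2 5299 ± 516 CPM. The excess of Alb over the mean of the other 13 eWAT libraries came to 0.283% of the liver level in HF 5, 0.211% in LF 5 and 0.161% in LF 3.

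**Figure D1:**
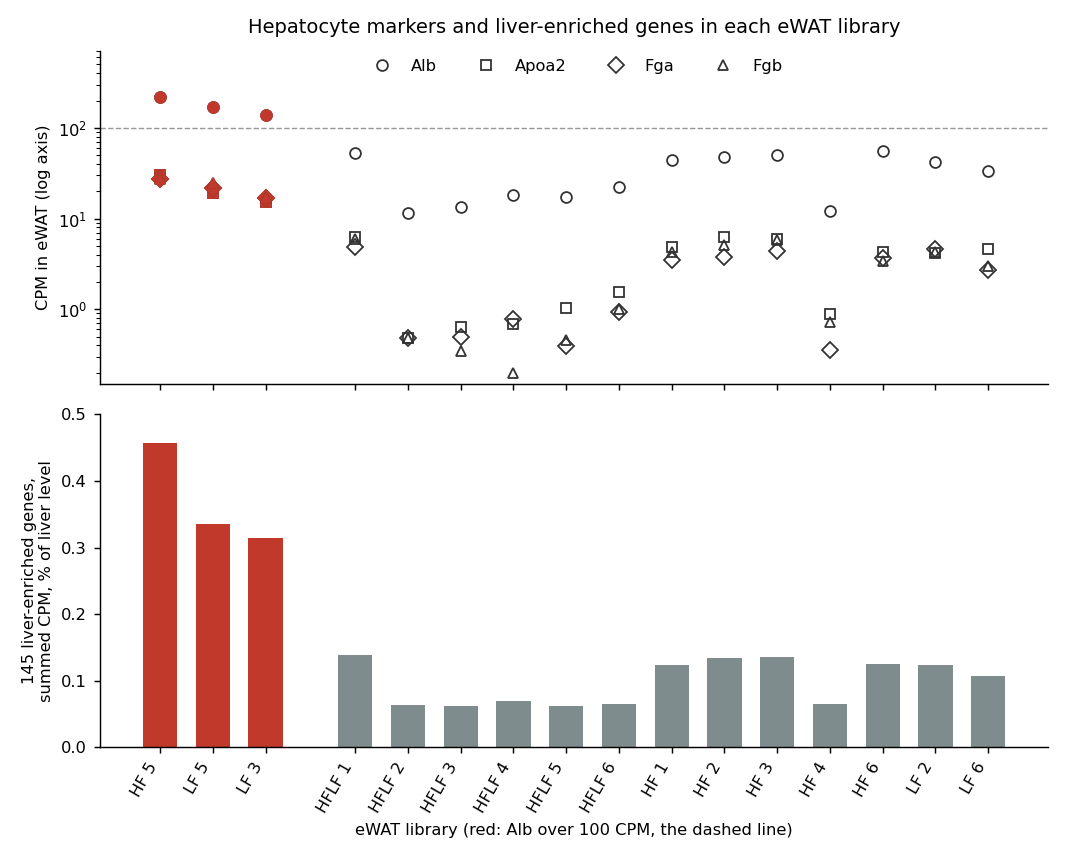
Levels of Alb, Apoa2, Fga and Fgb (top, CPM on a log axis, 1 point a library) and the summed CPM of the 145 liver-enriched genes as a percent of their mean sum in liver (bottom) in each of the 16 eWAT libraries, with the 3 Alb-high libraries in red at the left. The red bars stand between 0.314% and 0.458%, and all grey bars are at 0.139% or below.

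To describe the excess without relying on 4 genes, liver-enriched genes were taken as those with a mean of at least 100 CPM in liver and at least 100 times the mean CPM of the 13 other eWAT libraries. There were 145 such genes, which made up 28.8 ± 0.91% of the counts of a liver library (SD, n = 15). In eWAT they made up 0.132% of the counts in HF 5 (95% exact binomial interval 0.130 to 0.133%), 0.0967% in LF 5 (0.0952 to 0.0983%) and 0.0904% in LF 3 (0.0884 to 0.0923%), against 0.0177 to 0.0400% in the other 13. Only counting error is in these intervals, because without molecular identifiers several reads may come from 1 molecule.

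Of the 145 liver-enriched genes, 137 were higher and 8 lower in the Alb-high libraries, with a median log2 difference of 1.76 and quartiles of 0.73 and 2.28. Of all 15987 genes measured, 8006 were higher and the median was 0.00. All 3 Alb-high libraries lay above all 13 others for 77 of the 145 liver-enriched genes, beside 0.651% of all genes measured. All 3 lay below all 13 for 0.269% of all genes. These values depend in part on the filter of the deposited table, in which the fourth highest of the 16 libraries has at least 0.707 CPM for every gene. Of the 145 genes 35 do not reach that level in the 13 other libraries alone, so that the Alb-high libraries decided their place in the table. Over the other 110 genes, a set chosen after seeing the data, 102 were higher, the median log2 difference was 1.70, and all 3 Alb-high libraries lay above all 13 others for 61.

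edgeR's quasi-likelihood test with Benjamini-Hochberg adjustment called 0 of the 15987 genes in this contrast (0.0%), with a smallest adjusted p of 0.25, and 962 genes were under 0.05 before adjustment, 398 of them higher in the Alb-high libraries (2.49%) and 564 lower (3.53%). DESeq2 called 18 genes (0.113%) and limma voom 43 (0.269%), of which 13 and 42 were liver-enriched. Since Alb chose the libraries, nothing is read from these counts of calls.

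Liver-enriched genes of the highest liver level besides the markers showed the same separation, and 11 of them are described. They were Apoa1 (the main protein of high-density lipoprotein), Fgg (the fibrinogen gamma chain), the carriers Ttr, Gc and Hpx (for thyroid hormone, vitamin D and haem), the protease inhibitors Serpina3k, Serpina1e and Pzp, the plasma glycoprotein Ahsg, and the urinary pheromone carriers Mup3 and Mup20. Their log2 differences ran from 2.19 ± 0.47 for Serpina3k to 2.73 ± 0.71 for Fgg (SE). All 3 Alb-high libraries were above all 13 others for each of the 11, with HF 5 highest for 10 of them and LF 3 lowest for 11. The Mup and Serpina1 and Serpina3 genes have near-identical copies between which reads may have been split, so their single values are uncertain.

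Apoa1 had 67.1 CPM in HF 5, 45.4 in LF 5 and 41.8 in LF 3, against 0.842, 7.47 and 15.7 CPM as the lowest, median and highest value of the other 13. Fgg had 20.9 CPM in HF 5, 16.01 in LF 5 and 14.9 in LF 3, with 0.257 to 5.09 CPM in the other 13. Both genes kept the order of the markers, with a gap between the lowest Alb-high library and the highest of the others. Pzp, the one with the lowest mean CPM of the 11 in the Alb-high libraries, had 14.3 CPM in HF 5, 11.3 in LF 5 and 5.28 in LF 3, the last from 49 counts, and at most 2.98 CPM in the other 13.

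The excess was then set beside the liver level gene by gene. Summed over the 145 genes, the excess over the mean of the other 13 libraries was 0.360% of the liver sum in HF 5, 0.238% in LF 5 and 0.216% in LF 3. The mean over the 3 libraries was 0.271%, and their SD was 0.0774. Leaving Alb out of the sum, an alternative chosen after seeing the data, gave 0.382%, 0.246% and 0.232%. The 2 tables were totalled separately, so these shares are descriptions across tables and carry no test.

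Single genes lay around these values. Among the 63 liver-enriched genes with at least 1000 CPM in liver, the excess had a median of 0.337% of the liver level in HF 5 (quartiles 0.251 and 0.450%), 0.220% in LF 5 (0.173 and 0.284%) and 0.189% in LF 3 (0.124 and 0.232%). It was above 0 for all 63 genes in HF 5 and in LF 5 and for 61 in LF 3. Across genes, the logarithm of the excess and of the mean liver CPM had a Pearson r of 0.918 in HF 5 (63 genes), 0.917 in LF 5 (63 genes) and 0.745 in LF 3 (61 genes). Genes within a library share its depth and are not independent replicates, so no p is given. The excesses of LF 5 and HF 5 resembled each other more (r of 0.930) than either resembled that of LF 3 (0.776 for LF 5 and 0.834 for HF 5).

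**Figure D2:**
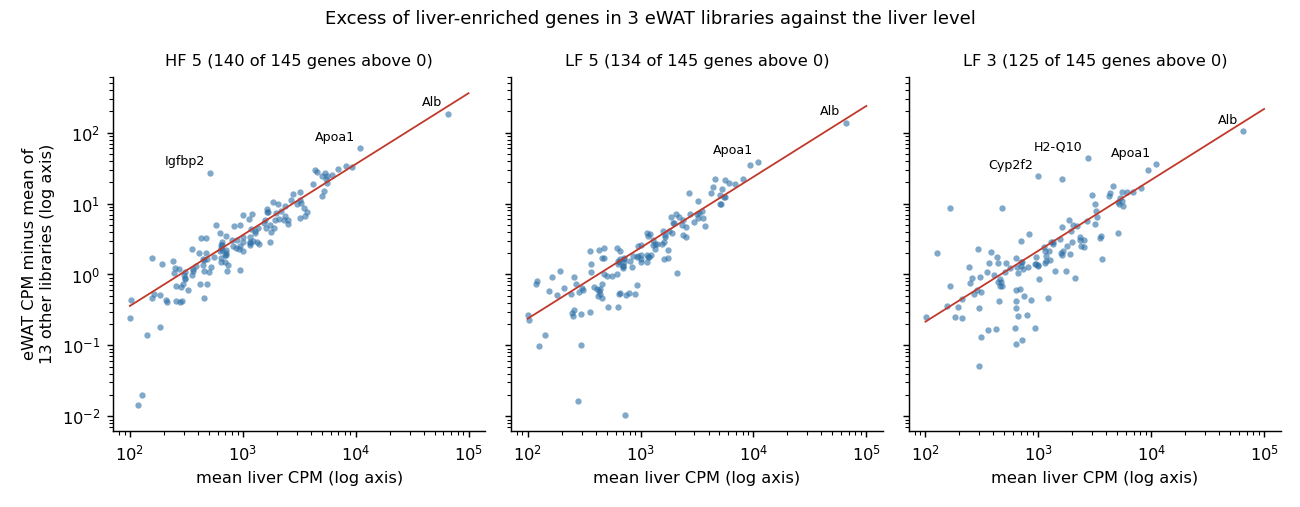
Excess CPM of each liver-enriched gene over the mean of the 13 other eWAT libraries, against its mean CPM in liver (both log axes, 1 point a gene with an excess above 0), in HF 5, LF 5 and LF 3. The red line is the ratio of the sums, 0.360% in HF 5, 0.238% in LF 5 and 0.216% in LF 3, and the points of LF 3 scatter most around it.

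The liver library that the excess resembled most was LF 1 for each of the 3, with an r of 0.937 for HF 5, 0.948 for LF 5 and 0.788 for LF 3. The liver library of the same arm and number had rank 10 of the 15 for HF 5, with an r of 0.878, and rank 3 for LF 3, with an r of 0.757. No liver library LF 5 was among the files. The labels do not say whether eWAT and liver libraries of the same number are of the same animal.

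By role, the excess as a percent of the liver level was largest for secreted proteins. Of 59 hepatocyte plasma proteins listed, 50 had a row in the eWAT table and 47 of these were higher in the Alb-high libraries, with a median log2 difference of 2.18. The 45 that were also liver-enriched had a median excess of 0.375% of liver in HF 5, 0.246% in LF 5 and 0.208% in LF 3. The exceptions include Trf (transferrin, the iron carrier), which adipose tissue holds in quantity, with 3608 CPM in HF 5, 4335 in LF 5 and 3516 in LF 3 against 2934 to 5125 CPM in the other 13, and a log2 difference of -0.11 ± 0.19. Apoc1, an apolipoprotein of triglyceride-rich particles, likewise overlapped between the groups and differed by 0.19 ± 0.16.

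Of 53 hepatocyte enzymes 28 had an eWAT row, and 26 of these were higher with a median log2 difference of 1.80. Car3, a carbonic anhydrase that fat also makes in quantity, had 13089 CPM in HF 5, 15958 in LF 5 and 17483 in LF 3, inside the 12149 to 23031 CPM of the other 13. The 25 liver-enriched ones had a median excess of 0.310% of liver in HF 5, 0.212% in LF 5 and 0.143% in LF 3. Of 25 transporters, receptors and regulators 13 had a row, 11 were higher and the median was 0.67. The 9 liver-enriched ones among them had a median excess of 0.181%, 0.136% and 0.0663% of liver in HF 5, LF 5 and LF 3. Genes of a low liver level often have no eWAT row, because the table was filtered on CPM before deposit. Examples are Slco1a1 (an uptake transporter of organic anions), with a mean of 431 CPM in liver, and Gulo (the last enzyme of vitamin C synthesis), with 617 CPM.

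The roles also differ in transcript length. In the 63 genes of at least 1000 CPM in liver, the 21 with the shortest exon length had a median excess of 0.449% of liver in HF 5, 0.265% in LF 5 and 0.214% in LF 3. The 21 with the longest had 0.256%, 0.183% and 0.127% in the same libraries. Spearman's rho between exon length and the excess in percent was -0.56 in HF 5, -0.42 in LF 5 and -0.47 in LF 3, as a description across genes. The part of length in the order of the roles was not tested.

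A few genes left the common range: 6 of the 145 were above 1% of the liver level in LF 3, 2 in HF 5 and 0 in LF 5. Among the 63 genes, the highest mean excess was that of Cyp2f2 (a cytochrome P450 of periportal hepatocytes and of lung), H2-Q10 (a secreted MHC class I protein of the liver) and Arg1 (arginase, the last step of the urea cycle, also made by macrophages). Cyp2f2 had 10.3 CPM in HF 5, 5.13 in LF 5 and 27.8 in LF 3, against 0.783, 2.69 and 7.33 CPM as the lowest, median and highest of the other 13. H2-Q10 had 23.9 CPM in HF 5, 17.2 in LF 5 and 54.1 in LF 3, against 6.66 to 13.2 CPM in the other 13, and as a class I gene it has close copies.

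Arg1 had 9.76 CPM in HF 5, 5.06 in LF 5 and 24.4 in LF 3, against 0.698 to 4.10 CPM in the other 13. In LF 3 the excess of these 3 genes was 2.43%, 1.60% and 1.37% of liver for Cyp2f2, H2-Q10 and Arg1. In LF 5 it was 0.165%, 0.259% and 0.178%, within the range of the other genes. Their log2 differences of 1.79 ± 0.63, 1.44 ± 0.29 and 1.93 ± 0.40 (SE) were 0.95, 0.99 and 1.33 without LF 3. Markers of macrophages moved in the same library: Lyz2 (lysozyme) had 1275 CPM in LF 3, above the 276 to 1117 CPM of the 13 other libraries, and 674 CPM in HF 5 and 494 CPM in LF 5. Of the 20 macrophage and monocyte genes 17 were higher in the Alb-high libraries, and they summed to 2594 CPM in HF 5, 2016 in LF 5 and 4054 in LF 3, against 1267 to 4258 CPM in the other 13. LF 3 lay above all 13 others for 10 of these 20 genes, HF 5 for 1 and LF 5 for 0. Of all genes measured these shares were 15.7%, 8.41% and 3.3%. Whether macrophages have a part in the Arg1 level of LF 3 was not tested.

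The lowest mean excess was that of Ass1 (the argininosuccinate synthase of the urea cycle, active in many tissues), Slc27a2 (a fatty acid transporter and acyl-CoA synthetase) and Slc38a3 (a glutamine transporter). Ass1 had 15.1 CPM in HF 5, 11.8 in LF 5 and 6.14 in LF 3, inside the 4.89 to 17.03 CPM of the other 13. Its excess was 0.285%, 0.0968% and -0.22% of liver in HF 5, LF 5 and LF 3. Slc27a2 had 3.44, 2.78 and 1.72 CPM in the same 3 libraries and at most 1.20 CPM in the others. Its excess of 0.162%, 0.124% and 0.0641% was small beside a liver mean of 1755 ± 222 CPM (SD, n = 15). Slc38a3 had 8.90 CPM in HF 5, 3.92 in LF 5 and 3.77 in LF 3, against 0.653 to 4.68 CPM in the other 13, so that HF 5 alone lay above them. Its log2 difference of 0.81 ± 0.45 (SE) was -0.20 without HF 5.

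**Figure D3:**
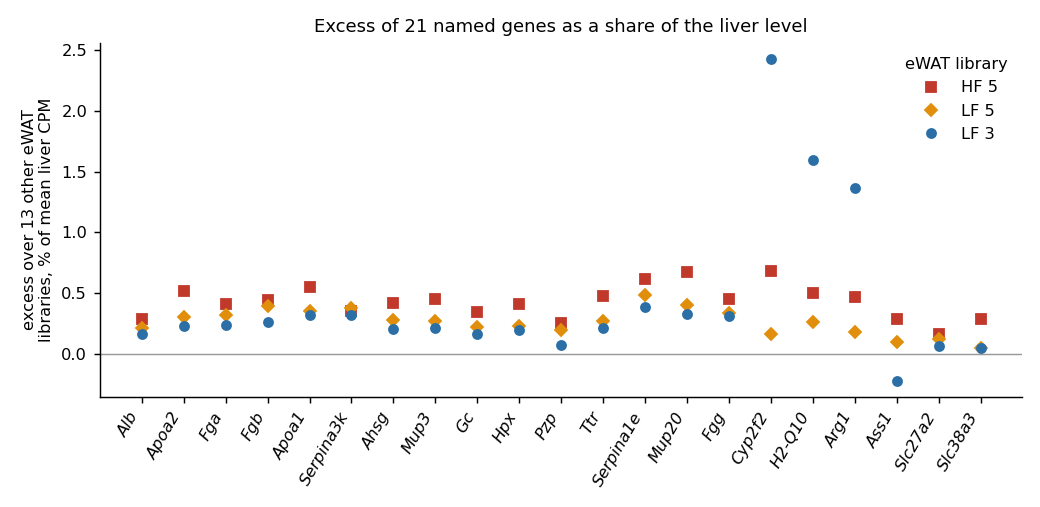
Excess over the 13 other eWAT libraries as a percent of the mean liver CPM, for the 4 markers, 11 genes of the highest liver level and the 6 genes of highest and lowest mean excess, in HF 5, LF 5 and LF 3 (1 point a library). Cyp2f2, H2-Q10 and Arg1 stand at 1.37% or more in LF 3, and all other points are at 0.683% or below.

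Hepatocytes differ along the liver lobule, so lists of periportal genes (near the incoming blood) and pericentral genes (near the outflow) were described. Of 14 periportal genes 10 had an eWAT row and 9 were higher in the Alb-high libraries, with a median log2 difference of 1.86. Of 14 pericentral genes 7 had a row and 5 were higher, with a median of 0.18. The pericentral genes of highest eWAT level are also made by fat, among them Cyp2e1 (a P450 of ethanol and fatty acid metabolism) and Glul (glutamine synthetase). Cyp2e1 had 2582 CPM in HF 5, 3487 in LF 5 and 6666 in LF 3, against 1327, 2241 and 4502 CPM as the lowest, median and highest of the other 13, and 6741 ± 1073 CPM in liver (SD, n = 15). Rgn, a pericentral and liver-enriched gene with 866 CPM in liver, had 2.68 CPM in HF 5, 2.15 in LF 5 and 0.754 in LF 3. It had at most 0.975 CPM in the other 13, and its log2 difference was 2.16 ± 0.56 (SE). Liver had a higher mean than the other 13 for 4 of the 7 pericentral genes and for all 10 periportal genes. The difference between the lists was not tested. Over 16 genes made by both hepatocytes and fat, such as Apoe, Hp and Pck1, 10 were higher and the median was 0.07.

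Markers of the other cells of the liver (Kupffer cells, sinusoidal endothelium, stellate cells and bile ducts) were then described. In these 4 lists 0 genes had all 3 Alb-high libraries above all 13 others, beside 0.651% of all genes measured. LF 3 lay above all 13 others for Cd5l, Slc40a1 and Il18bp of the Kupffer list. It did so too for Spp1 and Sox9 of the bile duct list and for Mrc1 of the endothelial list. LF 3 lay below all 13 for Timd4 and Cdh5. Of all genes measured, LF 3 was above all 13 for 15.7% and below all 13 for 13.8%. Cd5l, a secreted protein of tissue macrophages, had 9.66 CPM in HF 5, 4.37 in LF 5 and 38.6 in LF 3, against 0.543 to 11.1 CPM in the other 13. Spp1 (osteopontin, made by bile duct cells and by macrophages) had 1.47 CPM in HF 5, 2.40 in LF 5 and 160 in LF 3, against 0.407 to 15.2 CPM in the other 13 and 68.9 ± 78.8 CPM in liver (SD, n = 15).

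Of 11 markers of Kupffer cells, the resident macrophages, 10 had a row and 9 were higher, with a median log2 difference of 0.18. HF 5 alone lay above the other 13 for Folr2, a folate receptor, beside 8.41% of all genes measured for which HF 5 lay above them. Clec4f, their defining lectin, with 78.3 CPM in liver, had no eWAT row. Vsig4, a complement receptor of these cells, had 5.16 CPM in HF 5, 2.21 in LF 5 and 2.80 in LF 3, and up to 6.93 CPM in the other 13. The summed level of the list was 659, 669 and 775 CPM in HF 5, LF 5 and LF 3, against 577 to 775 CPM in the other 13. Cdh5, also a gene of blood endothelium, had the largest part of it, with 349, 384 and 342 CPM in these 3 libraries. In liver Cdh5 had 21.8 CPM, so the sum is not one of Kupffer cells alone.

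For sinusoidal endothelium 9 of 11 markers had a row, 2 were higher and the median was -0.16. Stab2, a scavenger receptor of that endothelium, had 3.14 CPM in HF 5, 3.80 in LF 5 and 3.13 in LF 3, against 1.24 to 7.75 CPM in the other 13. For hepatic stellate cells, the vitamin A storing cells, 9 of 11 had a row, 5 were higher and the median was 0.04, and for cholangiocytes, the cells of the bile ducts, 7 of 12 had a row, all 7 were higher and the median was 0.37. The bile duct list summed to 77.8 CPM in HF 5, 42.1 in LF 5 and 197 in LF 3, against 5.04 to 105 CPM in the other 13. Spp1 held 160 CPM of the sum in LF 3. Krt19, Krt8 and Krt18 of this list are also genes of mesothelium, described below. Krt19 had 42.1 CPM in HF 5, 18.7 in LF 5 and 12.5 in LF 3, against 0.310 to 57.5 CPM in the other 13 and 1.13 CPM in liver. Epcam, an epithelial adhesion protein of bile ducts, and Lrat, the enzyme of retinol storage in stellate cells, had no eWAT row. With 2.38 and 12.8 CPM they were lower in liver than Clec4f, so their missing rows do not speak to these cells either. In liver these marker lists summed to 326 to 690 CPM, and the hepatocyte plasma proteins to 221730 CPM.

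Other tissues of the abdomen were looked for in the same way. Of 12 kidney tubule markers 4 had a row, and Kap, Umod and Slc34a1, which define proximal and distal tubule, had none. Of 14 markers of exocrine pancreas 1 had a row, Cela1, and it was lower, at 17.1, 23.3 and 20.3 CPM in HF 5, LF 5 and LF 3 against 14.2 to 47.4 CPM in the other 13. Of 12 markers of small intestine 3 had a row, and the 1 that was higher, Apoa4, is also made by mouse liver, where it had 832 CPM. Of 15 epididymis genes 0 had a row. Every gene of the eWAT table reached 0.707 CPM in at least 4 libraries. A transcript held by the 3 Alb-high libraries alone would thus have no row at any level. Missing rows therefore do not say whether these libraries held transcripts of such tissues.

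Testis germ cell genes and B cell genes, which other eWAT libraries held at high levels, crossed with 2 of the 3. The sum of 10 germ cell genes was 55.9 CPM in HF 5, 55.9 in LF 5 and 90.6 in LF 3, against 43.5 to 224 CPM in the other 13, and the sum of 18 B cell genes was 2874, 587 and 518 CPM, against 503 to 4883 CPM. The B cell sums had the order of Alb and the germ cell sums did not. Adipocyte genes had 29 of 30 members in the table, a median of 0.07 and 18 higher, with Fabp4 (the fatty acid carrier of fat cells) at 17101, 17224 and 14437 CPM in HF 5, LF 5 and LF 3 against 13547 to 18938 CPM in the other 13. Of the 29, LF 3 lay below all 13 others for 7, among them Lep (leptin) with 1438, 1103 and 423 CPM in HF 5, LF 5 and LF 3 against 970 to 2915 CPM, and above all 13 for 8. HF 5 lay above or below all 13 for 0 of them, and LF 5 above for 1 and below for 0. Of all genes measured, LF 3 lay above all 13 for 15.7% and below for 13.8%. For HF 5 these shares were 8.41% and 3.05%, and for LF 5 they were 3.3% and 3.33%. Red blood cell genes had 9 of 12 members in the table and 0 of them higher, with a median of -0.79. Hbb-bs, a beta globin, had 195, 322 and 387 CPM in HF 5, LF 5 and LF 3, against 158, 386 and 657 CPM as the lowest, median and highest of the other 13, and reads may be split between it and its near-identical copies. Mesothelium genes, of the lining of the abdominal cavity, had 16 of 19 members higher and a median of 0.50, with sums of 1661, 894 and 506 CPM in HF 5, LF 5 and LF 3 against 294 to 1687 CPM in the other 13. Acute phase genes, which hepatocytes and fat raise in inflammation, had 9 of 16 members higher and a median of 0.34.

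**Figure D4:**
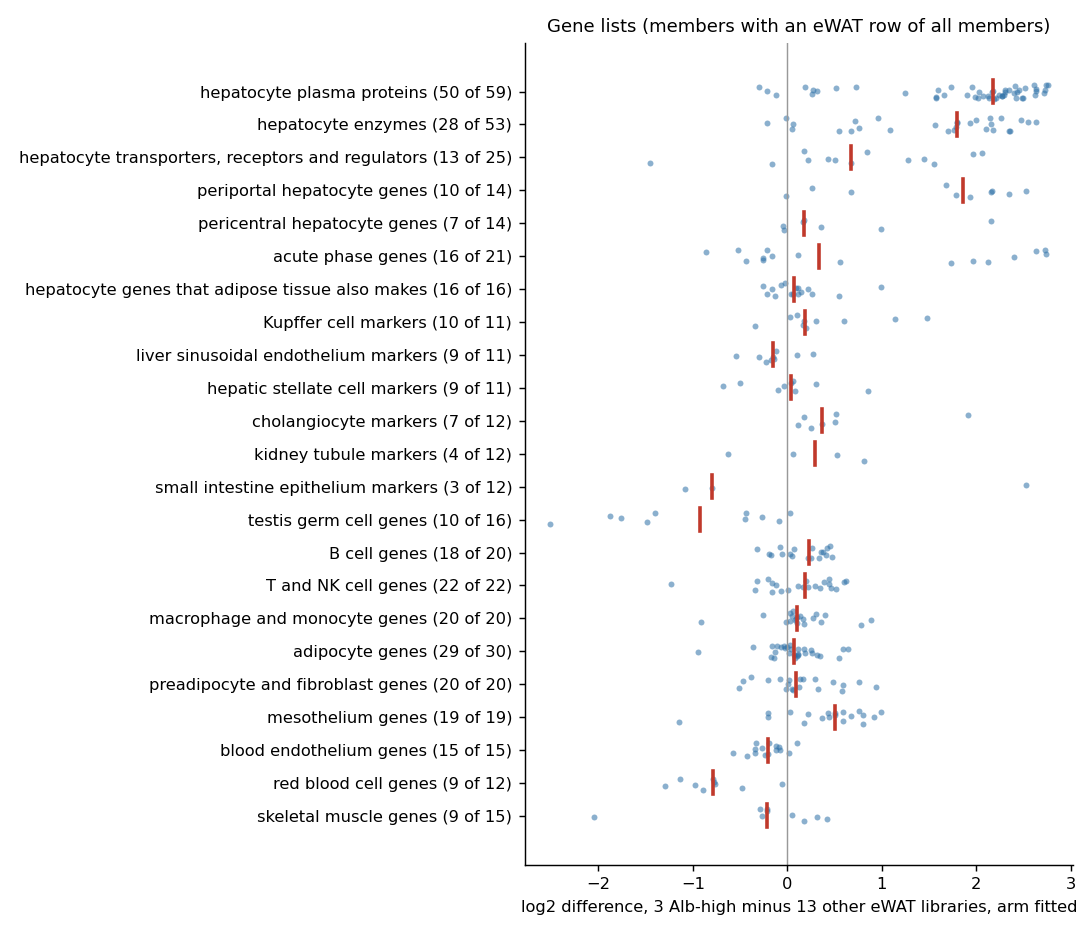
Log2 difference between the 3 Alb-high and the 13 other eWAT libraries, with arm fitted, for each member of the gene lists (1 point a gene, red bars for list medians). HFLF, which holds no Alb-high library, enters through the spread only. The 3 hepatocyte lists at the top have medians of 2.18, 1.80 and 0.67, and the lists of other liver cells, fat, blood and neighbouring organs have medians between -0.93 and 0.50.

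Depth overlapped between the groups. The Alb-high libraries had 14950300 ± 5298100 counts and the other 13 had 15237400 ± 5333760 (SD), with a two-sided exact permutation p of 0.95 over 560 labellings, of which the smallest possible is 0.0018. Genes of at least 3 counts numbered 15863 ± 138 in the Alb-high and 15854 ± 71.2 in the other libraries (exact permutation p = 0.89). HF 5 was the deepest of the 3 with 19771166 counts and LF 3 the shallowest of the 16 with 9278083, where 3 counts are 0.323 CPM.

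The 13 other libraries were not uniform either. In 7 of them, of which 2 were LF, 4 HF and 1 HFLF, Alb was between 33.6 and 55.9 CPM and the liver-enriched genes summed to between 0.107 and 0.139% of the liver level. In the other 6, which were HF 4 and HFLF 2 to 6, Alb was between 11.6 and 22.1 CPM and the sum between 0.0616 and 0.0698%. Since the libraries fall into separate clusters, no correlation was computed over all 13. Within the 7, Alb and the mean log2 CPM of the 144 other liver-enriched genes had a Pearson r of 0.71 (exact permutation p = 0.073, adjusted p = 0.13 over 2 relations) and a Spearman rho of 0.57 (exact permutation p = 0.20, adjusted p = 0.20).

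Within the 6, r was 0.69 (exact permutation p = 0.13, adjusted p = 0.13) and rho 0.71 (exact permutation p = 0.14, adjusted p = 0.20). Without the 2 libraries farthest from the median of Alb, r was 0.75 over 5 libraries and 0.46 over 4. Neither relation passed the threshold of 0.05. As a description, the 50 genes whose log2 CPM followed that of Alb most closely over the 16 libraries were all liver-enriched, as are 145 of all 15987 genes. The 16 include the 3 libraries chosen by Alb, so that choice shaped this ranking, and it is no support for the relations within the clusters.

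The Alb-high libraries bear on the comparison of the arms, because 2 of them are in LF and 0 in HFLF. The liver-enriched genes summed to 0.0769 ± 0.0306% of the liver level in HFLF (SD, n = 6) and 0.174 ± 0.142% in HF (n = 6), against 0.220 ± 0.122% in LF (n = 4). Without HF 5, LF 5 and LF 3 the values were 0.117 ± 0.0295% in HF (n = 5) and 0.115 ± 0.0121% in LF (n = 2), beside the same value in HFLF.

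In the fit of all 16 libraries 11 of the 145 liver-enriched genes were higher in HFLF than in LF and their median log2 difference was -1.48. Without the 3 libraries 23 were higher and the median was -0.70. Between HFLF and HF 14 were higher with a median of -1.22, and without the 3 libraries 29 were higher with a median of -0.60. Between HF and LF 26 were higher with a median of -0.31, and without the 3 libraries 71 were higher with a median of -0.02. This last median was -0.91 without HF 5 alone and 0.05 without LF 5 alone. The medians over all genes were between -0.01 and 0.01 in these fits.

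Alb itself differed by -2.04 ± 0.66 (SE) between HFLF and LF, and by -0.71 ± 0.55 without the 3 libraries. Fga differed by -2.98 ± 0.94 with all libraries and by -1.35 ± 0.86 without them. Between HF and LF the difference of Alb was -0.46 ± 0.65 with all libraries and 0.14 ± 0.58 without them. The comparisons share the libraries of each arm and are not independent of one another.

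edgeR's quasi-likelihood test with Benjamini-Hochberg adjustment called 0 of 15987 genes (0.0%) between HF and LF, between HFLF and LF and between HFLF and HF. Unadjusted p-values under 0.05 were found for 1126, 1733 and 1486 genes in these 3 comparisons, and DESeq2 called 1, 62 and 47 genes. Of the liver-enriched genes 7, 83 and 78 of 145 had an unadjusted p under 0.05, beside 7.04%, 10.8% and 9.3% of all genes. Without the 3 Alb-high libraries these were 2, 9 and 20 of the 145, beside 1933, 2011 and 1205 of all 15987 genes.

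**Figure D5:**
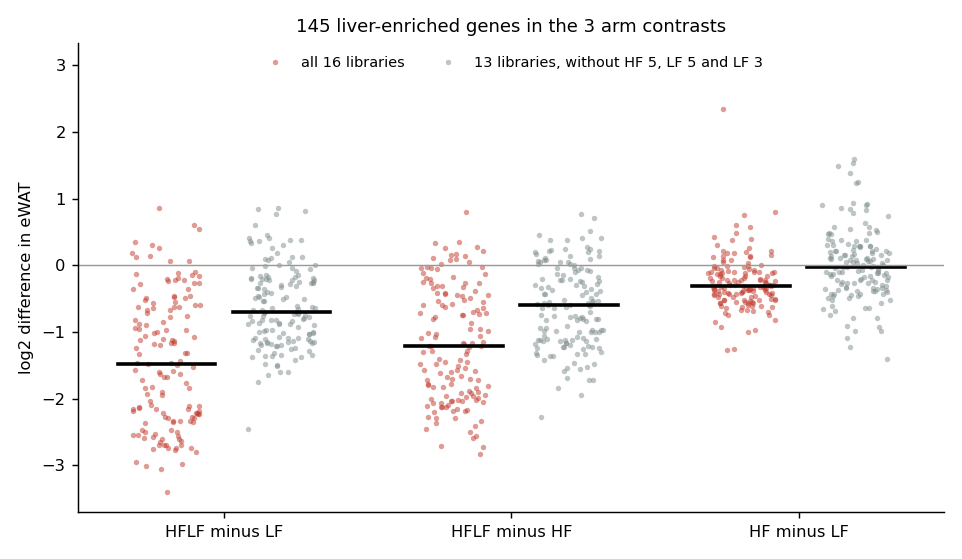
Log2 differences of the 145 liver-enriched genes in eWAT between the arms, fitted with all 16 libraries (red) and with the 13 left without HF 5, LF 5 and LF 3 (grey), 1 point a gene and black bars for medians. The medians of HFLF minus LF are -1.48 and -0.70, of HFLF minus HF -1.22 and -0.60, and of HF minus LF -0.31 and -0.02.

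The liver libraries of the same arm and number were examined for fat transcripts. Of 30 adipocyte genes 23 had a row in the liver table, and Adipoq, Plin1 (the coat protein of lipid droplets), Lep and Retn (the hormones leptin and resistin) had none. Every gene of the liver table reached 0.731 CPM in at least 4 libraries. A transcript held by liver HF 5 and LF 3 alone would thus have no row, so the missing rows do not speak to them. Over 7 adipocyte genes whose eWAT level was at least 100 times their liver level, the sum was 121 CPM in liver HF 5 and 51.4 CPM in liver LF 3, against 52.7 CPM (HF 3) to 101 CPM (HF 2) in the other 13 liver libraries. The sum was thus highest in liver HF 5 and lowest in liver LF 3. Fabp4 had 7.60 CPM in liver HF 5 and 7.50 CPM in liver LF 3, within the 5.37 to 29.1 CPM of the other 13. Plin4, a lipid droplet protein, had 49.2 CPM in liver HF 5 and 4.20 CPM in liver LF 3, against 4.05 to 40.6 CPM in the other 13.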

How the data were processed

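RNA-seq counts of 16 eWAT and 15 liver libraries were used. STAR and the build GRCm38.p6 are named in the submitters' processing notes. For the counting tool, strand setting and annotation no statement was found in these sources. The values deposited by the authors are raw counts per gene, filtered on CPM per the file names: 15987 genes in eWAT (9278083 to 27230205 counts a library) and 13677 in liver (9225373 to 17268415), with 12735 in both. Deposited RPKM values were not used, since the length they imply differs between libraries for the same gene. Ensembl identifiers gave no symbol for 18 eWAT and 15 liver genes, and coordinates and exon lengths came from GENCODE M21.

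CPM were computed over the genes of each table. eWAT counts were fitted with edgeR 4.0.16 in R 4.3.3 (TMM size factors, robust quasi-likelihood test, Benjamini-Hochberg adjustment over all genes, threshold 0.05), with the Alb-high term and arm as covariate (12 residual degrees of freedom) or with arm alone (13). The fits were tested on simulated data. Log2 CPM used a prior count of 2, and detection a floor of 3 counts. DESeq2 1.42.0 and limma 3.58.1 were alternatives, with others of scaling, filter, samples, baseline and gene set. The correlation of Alb with other liver-enriched genes had been planned over all 13 libraries by resampling, and was computed within their 2 clusters with exact permutation tests. P-values measure the spread between these samples, which may be technical. No 2 eWAT libraries of an arm agreed within sampling noise. Same-numbered libraries of different arms had correlations from -0.34 to 0.38, and numbers were not used as a block in the main fits. Members and lists were chosen with earlier results of these data known. Genes named were the 4 markers, 11 of the 12 other liver-enriched genes highest in liver (1 is not reported here), the 3 of highest and 3 of lowest mean excess at 1000 CPM or more in liver, and in each list the members of highest eWAT level or defining markers without a row. No gene lower in liver than in eWAT was called, so that part of the rule named 0 genes. Adipoq, Plin4, Lep, Hp, Vsig4, Stab2, Cd5l, Slc40a1, Il18bp, Timd4, Cdh5, Folr2, Spp1, Sox9, Mrc1, Slco1a1, Gulo, Rgn, Odf2, Prm1, Krt8, Krt18, Krt19 and the genes under other observations were named after their values were seen.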

Additional observations from a re-analysis of the deposited data

Results flagged for a closer look

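Within each arm, a library was looked for whose gap to its nearest neighbour took up most of the range of the group, by Dixon's test at the 95% level. The 10 measures in 3 arms gave 30 groups, of which chance alone would flag about 1 in 20, and 15 values stood apart. That rate is no standard for HF 5 and LF 3, since the libraries were chosen by Alb and Cyp2f2, H2-Q10 and Arg1 by their excess in them, so their values are descriptions. HF 5 stood apart from the other 5 HF libraries in Alb (217 CPM against 12.2 to 55.9), Apoa2 (30.5 CPM against 0.894 to 6.23), Fga (27.5 CPM against 0.358 to 4.40), Fgb (27.3 CPM against 0.716 to 5.78), H2-Q10 (23.9 CPM against 6.89 to 11.3), Arg1 (9.76 CPM against 1.89 to 3.24) and the sum of the liver-enriched genes (0.458% of the liver level against 0.0647 to 0.135%).

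LF 3 stood apart from the other 3 LF libraries in Cyp2f2 (27.8 CPM against 2.69 to 5.13), H2-Q10 (54.1 CPM against 10.5 to 17.2) and Arg1 (24.4 CPM against 3.04 to 5.06). HFLF 1, which is not an Alb-high library, stood apart from the other 5 HFLF libraries in Alb (52.7 CPM against 11.6 to 22.1), Apoa2 (6.19 CPM against 0.477 to 1.55), Fga (4.89 CPM against 0.392 to 0.931), Fgb (5.95 CPM against 0.198 to 1.01) and the sum of the liver-enriched genes (0.139% of the liver level against 0.0616 to 0.0698%). Library totals and numbers of detected genes stood apart in no arm.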

How the results depend on the processing

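The liver-equivalent share stayed within 1 SD over the 3 libraries of its mean of 0.271% under every alternative tried, from 0.222% as the median over genes to 0.287% without Alb. Single libraries moved by more under the fixed list of plasma proteins (HF 5 0.221%, LF 5 0.452% and LF 3 0.0473%), which holds Trf. The median log2 difference of the liver-enriched genes, 1.76, was 2.20 with a minimum mean of 5 CPM and 1.49 to 1.81 with each library left out. The count of genes called in that contrast, 0 with edgeR, was 18 with DESeq2, 43 with limma voom, 46 with no arm term, 1 without HFLF libraries and 1 without the libraries high in B cell genes. With each library left out it ran from 0 to 33, the 33 without HFLF 1 and a count of 1 without HFLF 6. The cause was not tested. Of the calls with DESeq2, limma voom and no arm term 13, 42 and 42 were liver-enriched. Between arms DESeq2 called 1 gene for HF minus LF, 62 for HFLF minus LF and 47 for HFLF minus HF. With libraries left out the calls ran from 0 to 13, the 13 in HFLF minus LF without LF 5. The median of the liver-enriched genes in HFLF minus LF moved to -0.70 without the Alb-high libraries and to -0.57 with Alb-high as a covariate, fits in which that group has fewer samples or its own term. In HF minus LF the covariate gave a median of 0.15. The correlation within the 7 libraries passed the threshold without HF 6 and ran from 0.43 to 0.88 with each left out. The difference in detected genes turned to -0.36 genes at 1 count. Fat genes in liver had a median log2 of 0.03 in LF 3 and 0.05 in HF 5, and of -0.67 and 0.27 at a ratio of 100. With the replicate number as a block edgeR called 0 genes in every contrast and the median of the liver-enriched genes was 1.94. Of 14 same-number pairs 7 correlated over 0.1, and 5 of 16 libraries correlated best with their own number. Whether these counts exceed chance was not tested. The fits of 21 named genes changed sign in 11 of 603 alternatives. Depth limits single liver-enriched genes in LF 3, where 3 counts are 0.323 CPM.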

Other observations

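Irf7, Rsad2 and Ifit3 are 3 genes of the interferon response, named after their values were seen. With arm as a covariate, edgeR's quasi-likelihood test called none of them in the fit of all 16 libraries, where it called 0 genes. With no arm term it called Irf7, and without HFLF 1 it called Rsad2. Irf7, a transcription factor of that response, had 76.0 CPM in HF 5, 46.1 in LF 5 and 62.9 in LF 3, against 25.5, 29.8 and 44.9 CPM as the lowest, median and highest of the other 13, a log2 difference of 0.78 ± 0.19 (SE). Rsad2, the antiviral protein viperin, had 44.6, 29.8 and 40.8 CPM in HF 5, LF 5 and LF 3, against 17.5 to 31.5 CPM in the other 13, so that LF 5 lay among them. DESeq2 and limma voom called Rsad2. Ifit3 had 82.7, 33.0 and 24.6 CPM in the same libraries, against 17.5 to 33.6 CPM, so that HF 5 alone was above the others. Liver had 51.8 CPM of Irf7, 9.47 of Rsad2 and 11.6 of Ifit3.

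Slc40a1, the iron exporter ferroportin and a gene of the Kupffer list, had 126 CPM in LF 3, 18.2 in HF 5 and 18.7 in LF 5, against 9.07 to 19.7 CPM in the other 13. In HF 5, Igfbp2 (a binding protein of insulin-like growth factors) had 32.3 CPM, with 1.77 CPM in LF 5, 2.37 CPM in LF 3 and up to 12.2 CPM in the other 13, an excess of 5.31% of its liver level. Apart from the liver-enriched genes, 27 genes had all 3 Alb-high libraries above all 13 others. Over all 15987 genes measured, the liver-enriched ones included, there were 104 (0.651%). Of the 27, 8 had a higher mean in liver than in the other eWAT libraries, beside 3013 of the 15987. Whether the 27 exceed the number expected by chance was not tested.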
